A study of Mus musculus with 9 samples.

Results

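The transcripts of 8 CXC chemokines were examined in dendritic cells (DCs) grown from mouse bone marrow: *Cxcl1*, *Cxcl2*, *Cxcl3*, *Cxcl5*, *Cxcl9*, *Cxcl10*, *Cxcl11* and *Cxcl16*. They were chosen by gene symbol, as the 8 rows with these names among the 55471 genes counted. RNA sequencing was available for 9 libraries, with 3 each from unstimulated DCs, DCs treated with lipopolysaccharide (LPS, 100 ng/mL) and DCs treated with interferon-β (IFN-β, 1000 U/mL), all harvested after 6 h. All 3 groups were wild-type (WT) C57BL/6 cells, from female mice of 8 to 20 weeks, and all were differentiated with granulocyte-macrophage colony-stimulating factor (GM-CSF, 20 ng/mL), so this factor was also present in the control cultures. The libraries of each group carry the letters A, B and C. Nothing in the labels ties a letter to a separate mouse or culture, so p-values measure the spread between these libraries, which may be technical.

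CXC chemokines are small secreted proteins that guide leukocytes through G protein-coupled receptors. CXCL1, CXCL2, CXCL3 and CXCL5 carry a glutamate-leucine-arginine (ELR) motif and draw neutrophils through CXCR2. CXCL9, CXCL10 and CXCL11 lack it, bind CXCR3 and draw activated T cells and NK cells, and their genes are classical targets of interferons. CXCL16 is made as a membrane-anchored protein, binds CXCR6 and is released from the cell surface by proteases. LPS is sensed by TLR4, which activates NF-κB and also induces IFN-β, whereas IFN-β acts through IFNAR and the STAT and IRF factors. DCs use these chemokines to recruit cells to sites of infection and to position T cells.

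The genes of 7 members lie on chromosome 5 of the mouse genome (GRCm38, GENCODE M21 annotation). *Cxcl5* (chr5:90759360-90761624), *Cxcl3* (chr5:90786103-90789600), *Cxcl1* (chr5:90891241-90893115) and *Cxcl2* (chr5:90903871-90905938) form a group on the + strand, with 10756 bp between *Cxcl1* and *Cxcl2*. *Cxcl9* (chr5:92321347-92328079), *Cxcl10* (chr5:92346638-92348889) and *Cxcl11* (chr5:92359544-92365485) form a second group on the − strand, with 18559 bp between *Cxcl9* and *Cxcl10* and 10655 bp between *Cxcl10* and *Cxcl11*. *Cxcl16* lies alone on chromosome 11 (chr11:70453983-70459984, − strand). In this annotation *Cxcl11* is a polymorphic pseudogene, so its counts are those of a transcript and not evidence of a protein.

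Of the 8 members, 5 had a promoter in RefSeq (GRCm38.p6), covering 250 bases before to 50 after the start of transcription. The stretches below are shown because they hold letters that resemble the binding sequences of NF-κB (GGANNTTCC) or of interferon-activated factors (GAAANNGAA). The letters TATAAA, as in a TATA box, are also marked, whatever their position. Both strands were searched, and the capitals mark the matching letters. The kB matches fit the pattern on both strands at the same position. The stretches are chr5:90891165-90891193 for *Cxcl1*, chr5:90903793-90903821 for *Cxcl2* and chr5:90786019-90786086 for *Cxcl3*, all on the + strand. They are chr5:92328236-92328284 for *Cxcl9* and chr5:92349029-92349112 for *Cxcl10*, both on the − strand.
Cxcl1: ctgtactccgGGAATTTCCctggcccgga
Cxcl2: ctgagctcagGGAATTTCCctggtccccg
Cxcl3: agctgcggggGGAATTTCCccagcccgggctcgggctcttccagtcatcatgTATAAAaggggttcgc
Cxcl9: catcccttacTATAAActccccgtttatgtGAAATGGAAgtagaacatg
Cxcl10: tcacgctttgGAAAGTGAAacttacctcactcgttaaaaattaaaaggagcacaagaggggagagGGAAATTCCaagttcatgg
*Cxcl1*, *Cxcl2* and *Cxcl3* held the same 9 letters, GGAATTTCC, with the match starting at positions −70, −96 and −72 relative to the start site. *Cxcl10* held both kinds of letters, the interferon type from −213 and the kB type from −158. *Cxcl9* held the interferon type alone, from −175. The TATAAA letters started at −30 in *Cxcl3* and at −195 in *Cxcl9*. Among all 32851 promoters in the table, 4.26% held the kB letters, 8.56% the interferon letters, 13.6% the TATA letters and 0.390% both the kB and the interferon letters. The letters TTCNNNGAA (GAS) were also searched for. They matched no promoter of the 5 members and were held by 8.30% of all promoters. A match describes the letters only and does not show that a factor was bound.

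Between 33425803 and 43735199 counts per library fell on genes. Of the 55471 genes, 16260 passed the filter on low counts, and all 8 members were among them. *Cxcl11* was nearly absent without stimulation and passed through the stimulated libraries alone. Expression is given in CPM, a gene's counts relative to the library size after scaling with TMM factors, which correct for composition. All 8 dendritic cell markers examined, among them *Itgax* and *H2-Ab1*, were above 3 counts in every library, with a summed level of 5303 to 6417 CPM unstimulated, 6940 to 7817 CPM with LPS and 5880 to 6216 CPM with IFN-β. Of these markers 4 were higher with LPS, as were 32.8% of all tested genes. Because these are bulk samples, a change in the number of cells that make a transcript and a change in the RNA made per cell cannot be told apart.

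Together the 8 chemokines took 0.0299% to 0.0419% of all assigned counts in unstimulated DCs. They took 0.719% to 0.792% with LPS and 0.0865% to 0.132% with IFN-β. The ranges of the 3 groups did not overlap. All 8 members were higher in LPS-activated than in unstimulated DCs (7 of 7 without *Cxcl11*), where 32.8% of all tested genes were higher and 35.4% lower at the same threshold, an adjusted p-value under 0.05 in edgeR's quasi-likelihood test. With IFN-β, 4 members were higher, with *Cxcl11* among the 4, and 0 lower, against 23.6% of all tested genes higher and 23.3% lower. The members' median log2 fold change was 6.73 with LPS and 0.48 with IFN-β, and the medians of all tested genes were −0.04 and −0.02. The unstimulated libraries are shared by these comparisons, so their values are set side by side below and no agreement between them is taken as a result.

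**Figure D1:**
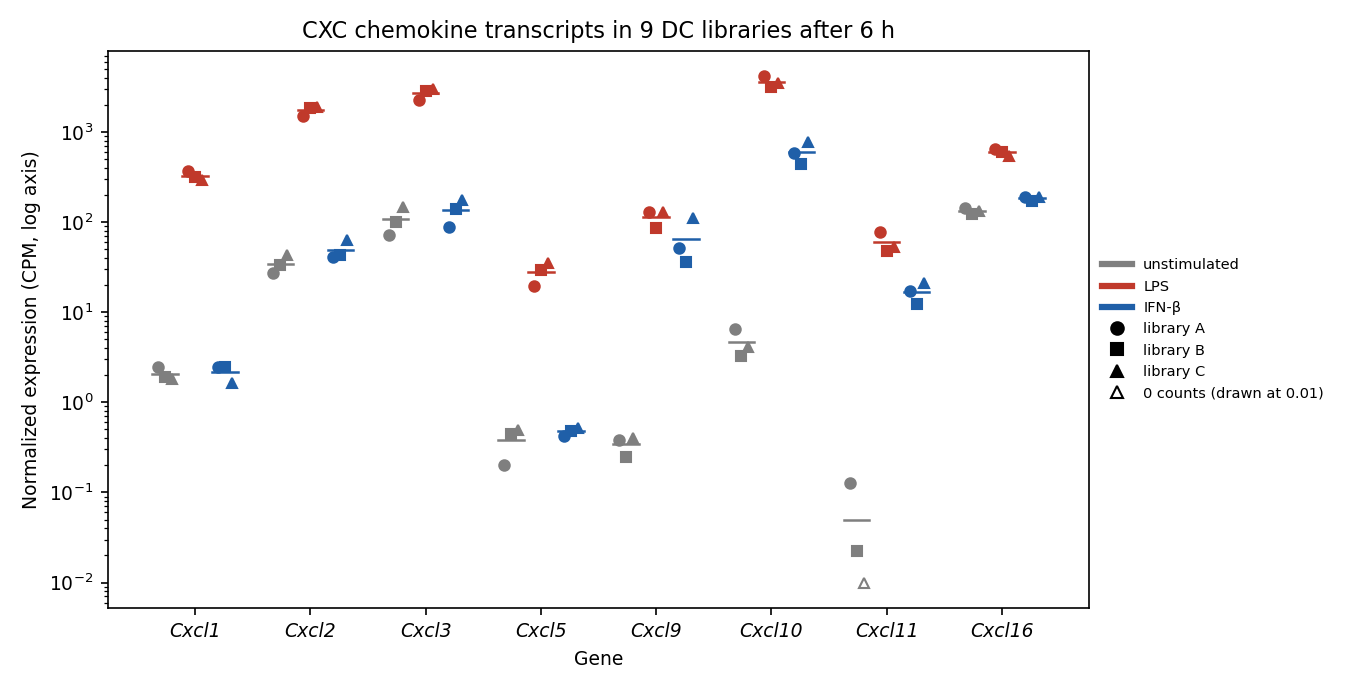
Normalized expression of the 8 CXC chemokine transcripts (CPM, log axis) in each of the 9 libraries, with symbols for the letters A, B and C and a line at the mean of each group of 3. With LPS every member lies above its unstimulated libraries. With IFN-β *Cxcl9*, *Cxcl10*, *Cxcl11* and *Cxcl16* lie above theirs, while *Cxcl1*, *Cxcl2*, *Cxcl3* and *Cxcl5* overlap with them. The share of all tested genes whose libraries separate in this way is not given here. By the edgeR calls, 32.8% of all tested genes were higher with LPS and 23.6% with IFN-β.

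The neutrophil-attracting members responded to LPS and were near their unstimulated levels with IFN-β. *Cxcl1* was at 2.46, 1.91 and 1.83 CPM in libraries A, B and C without stimulus, at 365, 319 and 291 CPM with LPS, and at 2.44, 2.44 and 1.63 CPM with IFN-β. The LPS libraries stood far above all others, and the unstimulated and IFN-β libraries overlapped. The log2 fold change was 7.30 ± 0.17 (SE) with LPS, with an adjusted p-value of 8.9e-10 in edgeR's quasi-likelihood test. With IFN-β it was 0.08 ± 0.18 with an adjusted p-value of 0.73, the smallest change of the 8 members.

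*Cxcl2* was at 27.0, 33.7 and 42.6 CPM in libraries A, B and C without stimulus, at 1510, 1829 and 1891 CPM with LPS, and at 40.6, 43.5 and 63.1 CPM with IFN-β. With LPS it rose by 5.66 ± 0.23 on the log2 scale (edgeR adjusted p-value 1.2e-08), from 34.4 ± 7.79 to 1743 ± 205 CPM (mean ± SD, n = 3). Each IFN-β library was above the unstimulated library of the same letter, but the ranges of the groups overlapped, and the log2 fold change of 0.51 ± 0.19 missed the threshold with an adjusted p-value of 0.051. With the letters as a block in the model, the log2 fold change was 0.51 and the adjusted p-value 0.000204, which passed it. It also passed without unstimulated library C (0.69, adjusted p-value 0.016) and without IFN-β library A (0.62, adjusted p-value 0.0346), and over 18 alternatives the adjusted p-value ranged from 0.000204 to 0.429.

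*Cxcl3* was well expressed before stimulation. It was at 71.9, 101 and 148 CPM in libraries A, B and C without stimulus, at 2271, 2809 and 2959 CPM with LPS, and at 87.5, 139 and 178 CPM with IFN-β. In all 3 groups library A was the lowest and library C the highest. The log2 fold change was 4.65 ± 0.32 with LPS (edgeR adjusted p-value 3.8e-07) and 0.33 ± 0.28 with IFN-β, where the adjusted p-value was 0.36. With the letters as a block the IFN-β value was 0.33 and passed the threshold with an adjusted p-value of 0.0182, the lowest in a range up to 0.971 over 18 alternatives.

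*Cxcl5*, also known as LIX, was the lowest of this subfamily per kb in all 3 groups. Its counts were 8, 20 and 22 in libraries A, B and C without stimulus, 555, 1017 and 1139 with LPS, and 18, 18 and 19 with IFN-β. The LPS counts were separate from the rest, and the IFN-β counts lay within the unstimulated range. The mean level was 0.383 ± 0.158 CPM unstimulated, 28.1 ± 7.79 CPM with LPS and 0.475 ± 0.0517 CPM with IFN-β (SD, n = 3). The log2 fold change was 6.17 ± 0.29 with LPS (edgeR adjusted p-value 2.4e-08) and 0.28 ± 0.41 with IFN-β (adjusted p-value 0.61).

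The CXCR3 ligands rose with both stimuli. *Cxcl10* was at 6.44, 3.30 and 4.08 CPM in libraries A, B and C without stimulus, at 4163, 3162 and 3524 CPM with LPS, and at 582, 444 and 780 CPM with IFN-β. The 3 groups did not overlap, and the IFN-β level lay between the others in every letter. The log2 fold change was 9.62 ± 0.34 with LPS (edgeR adjusted p-value 5.3e-09) and 7.03 ± 0.31 with IFN-β (adjusted p-value 3.5e-07). In the LPS libraries *Cxcl10* took 108536 to 117655 counts.

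*Cxcl9* had 15, 11 and 18 counts in libraries A, B and C without stimulus, 3639, 2983 and 4194 with LPS, and 2172, 1343 and 3983 with IFN-β. The unstimulated libraries stood apart from the others, whereas IFN-β library C, at 110 CPM, lay within the LPS range of 86.9 to 129 CPM. The log2 fold change was 8.37 ± 0.53 with LPS (edgeR adjusted p-value 2e-07) and 7.56 ± 0.53 with IFN-β (adjusted p-value 2.8e-06). *Cxcl9* is best known as a gene induced by interferon-γ, and *Ifng* itself had 0 or 1 counts in each of the 9 libraries.

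*Cxcl11* had 5, 1 and 0 counts in libraries A, B and C without stimulus, 2191, 1619 and 1734 with LPS, and 726, 458 and 765 with IFN-β. With 6 counts in the unstimulated group, its fold change is best given as the ratio of summed scaled counts with an exact conditional 95% interval. The ratio was 1246 with LPS (interval 572 to 3397) and 358 with IFN-β (interval 164 to 976), both covering counting error only. The fitted log2 fold change was 10.21 ± 0.47 with LPS (edgeR adjusted p-value 2.3e-08) and 8.39 ± 0.49 with IFN-β (adjusted p-value 1.2e-06). Without unstimulated library A, which held 5 of the 6 counts, these values became 11.98 and 10.16, without unstimulated library B 9.86 and 8.05, and without unstimulated library C 9.62 and 7.80.

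*Cxcl16* had a high level without stimulation and the smallest change of the 8 members with LPS. It was at 144, 123 and 134 CPM in libraries A, B and C without stimulus, at 654, 605 and 545 CPM with LPS, and at 188, 172 and 188 CPM with IFN-β. The groups did not overlap. The log2 fold change was 2.17 ± 0.09 with LPS (edgeR adjusted p-value 1.4e-08) and 0.45 ± 0.09 with IFN-β (adjusted p-value 0.0019). The IFN-β change became 0.14 with an adjusted p-value of 0.105 when counts were scaled by library size alone, the highest in a range from 2.43e-05 over 18 alternatives.

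**Figure D2:**
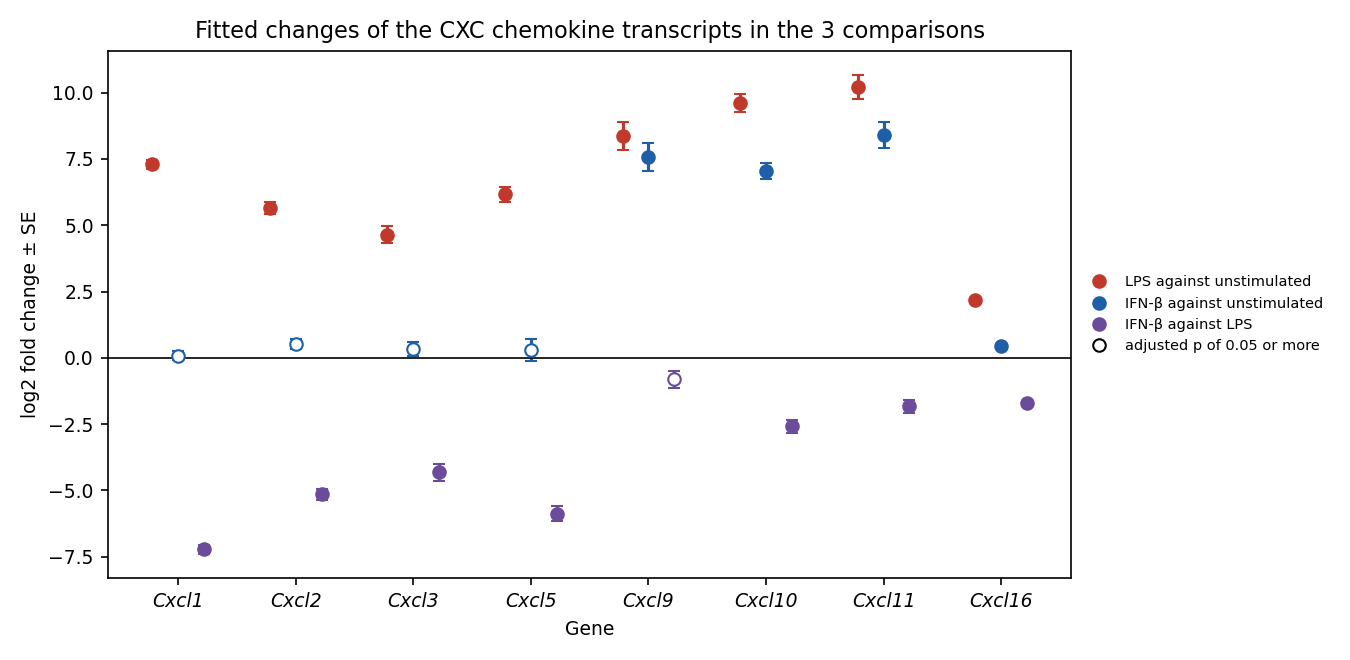
Fitted log2 fold changes with their standard errors (vertical axis) for the 8 members in the 3 comparisons, with open symbols where the adjusted p-value was 0.05 or more. The IFN-β changes of *Cxcl1*, *Cxcl2*, *Cxcl3* and *Cxcl5* lie between 0.08 and 0.51 and those of *Cxcl9*, *Cxcl10* and *Cxcl11* between 7.03 and 8.39.

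The study's model also asked which genes responded differently to the 2 stimuli, which for these groups is the difference between IFN-β and LPS libraries. Of the 8 members, 7 were lower with IFN-β than with LPS and 0 higher, against 23.3% of all tested genes lower and 25.8% higher. The median log2 difference of the members was −3.45, and that of all tested genes was 0.02. The neutrophil-attracting members differed most. The log2 difference was −7.22 ± 0.17 for *Cxcl1* (edgeR adjusted p-value 1.4e-09), −5.89 ± 0.28 for *Cxcl5*, −5.15 ± 0.23 for *Cxcl2* and −4.32 ± 0.32 for *Cxcl3* (adjusted p-value 1.7e-06). For *Cxcl10* it was −2.59 ± 0.25 (adjusted p-value 1.1e-05), for *Cxcl11* −1.82 ± 0.24 (adjusted p-value 0.00012) and for *Cxcl16* −1.72 ± 0.09 (adjusted p-value 1.7e-07).

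*Cxcl9* was the member that did not pass the threshold in this comparison, with a log2 difference of −0.81 ± 0.33 and an edgeR adjusted p-value of 0.065. With the letters as a block it passed at −0.94 with an adjusted p-value of 0.00013, and without IFN-β library C it passed at −1.41 with an adjusted p-value of 0.000378. Over 18 alternatives the adjusted p-value ranged from 0.00013 to 0.182. Within letters A, B and C the IFN-β level of *Cxcl9* was 39.5%, 41.0% and 85.4% of the LPS level, so the difference between the stimuli was smallest in letter C. *Cxcl10* was at 14.0%, 14.0% and 22.1%, and *Cxcl11* at 21.9%, 25.8% and 39.7%, with letter C again the highest. As ratios of group means, the IFN-β level was 0.668% of the LPS level for *Cxcl1*, 1.69% for *Cxcl5*, 2.81% for *Cxcl2*, 5.02% for *Cxcl3*, 16.6% for *Cxcl10*, 28.3% for *Cxcl11*, 30.4% for *Cxcl16* and 57.0% for *Cxcl9*.

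**Figure D3:**
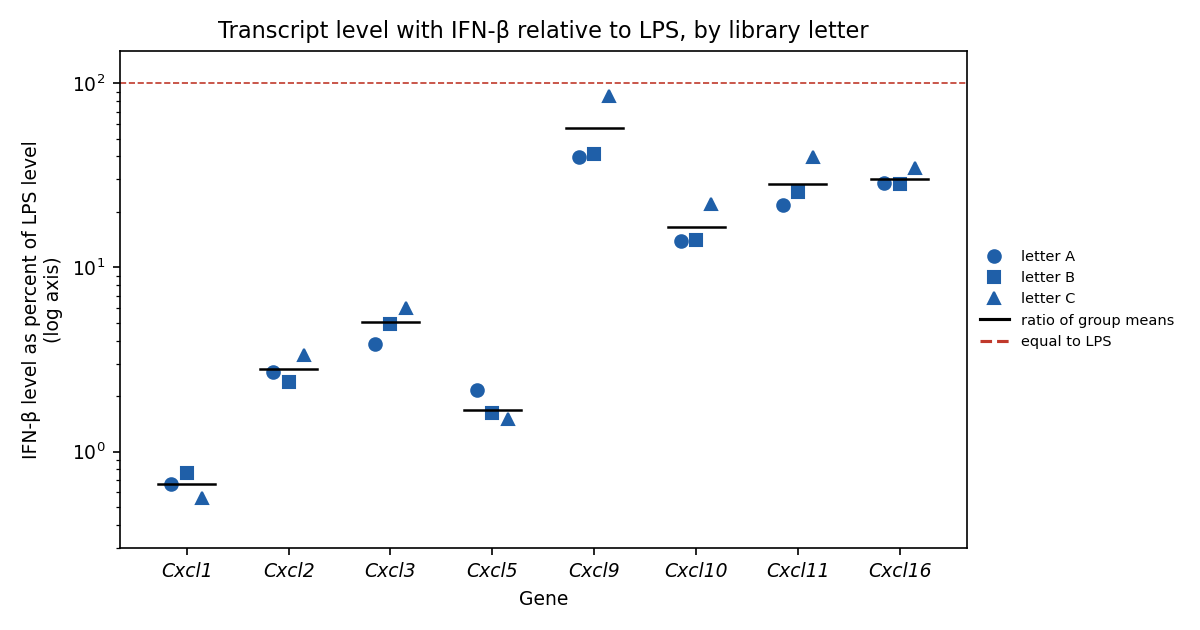
The level of each member with IFN-β as a percent of its level with LPS (log axis), for the libraries of letter A, B and C, with a line at the ratio of the group means and a dashed line where the levels would be equal. *Cxcl1*, *Cxcl2*, *Cxcl3* and *Cxcl5* lie between 0.560% and 6.00%, and *Cxcl9*, *Cxcl10*, *Cxcl11* and *Cxcl16* between 14.0% and 85.4%.

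Ratios of counts within a library do not depend on how libraries are scaled, and 4 pairs from the same gene group were compared between LPS and IFN-β. *Cxcl9* counts were 3.09%, 2.75% and 3.66% of *Cxcl10* counts in LPS libraries A, B and C and 8.75%, 8.03% and 14.1% in IFN-β libraries, a log2 difference of 1.66. *Cxcl11* counts were 1.86%, 1.49% and 1.51% of *Cxcl10* counts with LPS and 2.92%, 2.74% and 2.71% with IFN-β, a log2 difference of 0.79. Both ligands therefore took a larger share relative to *Cxcl10* in the IFN-β than in the LPS libraries, without overlap. *Cxcl1* counts were 24.2%, 17.5% and 15.4% of *Cxcl2* counts with LPS and 5.99%, 5.61% and 2.58% with IFN-β, a log2 difference of −2.07. *Cxcl3* counts were 150%, 154% and 157% of *Cxcl2* counts with LPS and 215%, 319% and 282% with IFN-β, a log2 difference of 0.81. None of these ranges overlapped between the stimuli. The exact two-sided permutation test over 3 libraries against 3 gave p = 0.1 for each pair, and 0.1 after Benjamini-Hochberg adjustment over the 4 pairs, the smallest value that this design allows. In unstimulated DCs the *Cxcl1* share was 4.29% to 9.09% and the *Cxcl3* share 266% to 349% of *Cxcl2*, overlapping with the IFN-β libraries. The unstimulated *Cxcl9* share of *Cxcl10* was 5.91% to 9.94%, which overlapped with the IFN-β libraries and lay above the LPS libraries. That of *Cxcl11* was 0% to 1.97%, on very few counts.

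**Figure D4:**
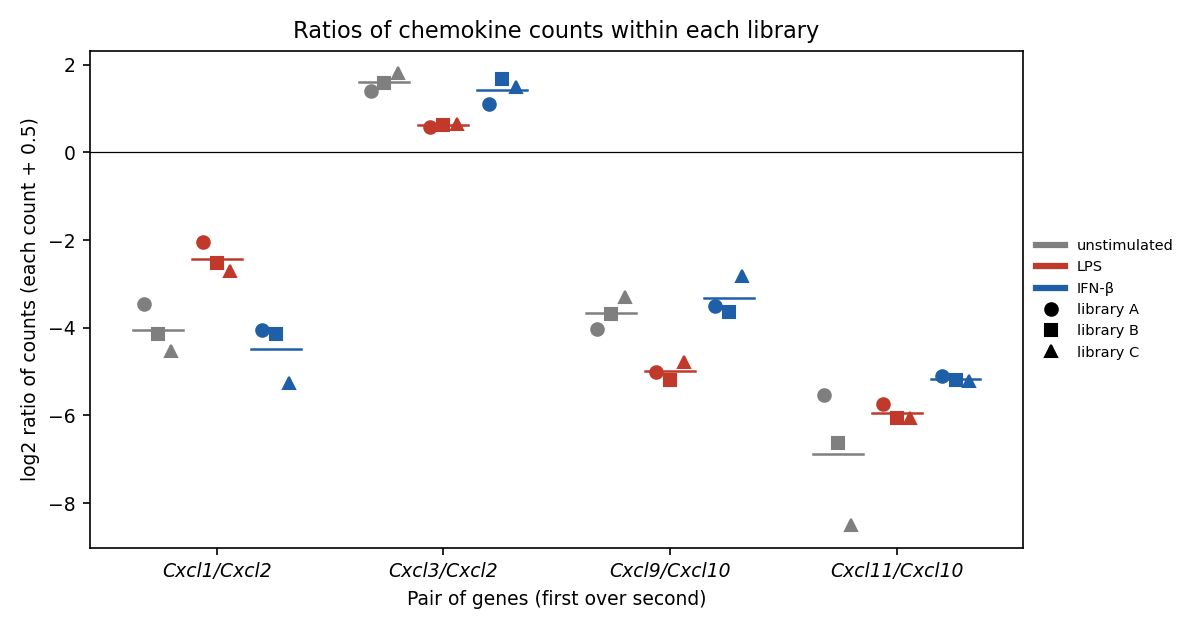
Log2 ratio of the counts of 2 chemokine genes of the same gene group within each of the 9 libraries (vertical axis, 0.5 added to each count), with lines at the group means. For all 4 pairs the LPS and IFN-β libraries lie apart, and the unstimulated *Cxcl11* to *Cxcl10* ratios spread widely because they rest on 5, 1 and 0 *Cxcl11* counts.

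The order of the members was compared per length, as mean CPM per kb of the longest coding transcript. In unstimulated DCs *Cxcl3* was highest at 105 CPM per kb, followed by *Cxcl16* at 49.6, *Cxcl2* at 18.5, *Cxcl10* at 3.40 and *Cxcl1* at 2.17, with *Cxcl5* (0.243), *Cxcl9* (0.119) and *Cxcl11* (0.0314) last. The ranges of *Cxcl10* and *Cxcl1* overlapped, as did those of *Cxcl5* and *Cxcl9*. With LPS *Cxcl10* (2673) and *Cxcl3* (2638) led with overlapping ranges, ahead of *Cxcl2* (938), *Cxcl1* (341) and *Cxcl16* (223), and *Cxcl9* (39.7), *Cxcl11* (37.5) and *Cxcl5* (17.8) were lowest, the first pair of them overlapping. With IFN-β *Cxcl10* led at 445, followed by *Cxcl3* (133), *Cxcl16* (67.7), *Cxcl2* (26.4), *Cxcl9* (22.7), *Cxcl11* (10.6), *Cxcl1* (2.28) and *Cxcl5* (0.301), where the range of *Cxcl9* overlapped with those of *Cxcl2* and *Cxcl11*. The union of annotated exons was used as a second length, and it includes retained introns of *Cxcl3* and of some other members. By that length *Cxcl16* came before *Cxcl3* in unstimulated DCs (44.3 and 30.6 CPM per kb, with overlapping ranges) and with IFN-β (60.5 and 38.5, without overlap). With LPS *Cxcl2* came before *Cxcl3* (843 and 766) and *Cxcl16* before *Cxcl1* (199 and 173), each pair with overlapping ranges. *Cxcl10* was first under both stimuli.

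Some members share sequence with other genes, which can affect counting. Of the 100-base windows of *Cxcl2*, 3.05% also occurred in *Cxcl3*, and 1.88% of those of *Cxcl3* occurred in *Cxcl2*. *Cxcl11* shared 39.1% with the processed pseudogene *Gm2673* on the other strand, and *Cxcl16* shared 14.2% with exons of *Zmynd15* on the other strand. *Cxcl10* shared 1.39% with *Art3*, which overlaps it on the other strand. Whether the counting used strand is not given in the sources used here, so reads of these overlapping pairs may not be told apart. *Art3* had 1 count in each unstimulated library, 17 to 22 with LPS and 4 to 12 with IFN-β, and *Zmynd15* rose by 2.73 ± 0.10 on the log2 scale with LPS (edgeR adjusted p-value 6.6e-09).

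Other genes near the members moved in both directions, as did the tested genes as a whole. Within 100 kb of a member, 21 other genes were examined, of which 16 were tested. They were the protein-coding genes and *Gm2673*, whose exons overlap those of *Cxcl11*, and other non-coding genes were left out. With LPS 7 were higher and 6 lower, and with IFN-β 6 were higher and 4 lower. Of all tested genes, 32.8% were higher and 35.4% lower with LPS, and 23.6% and 23.3% with IFN-β. *Art3*, counted as higher with both, passed the filter on low counts through the LPS libraries alone. Between *Cxcl5* and *Cxcl3* lie the platelet chemokine genes *Ppbp* and *Pf4*. *Ppbp* had a log2 fold change of 0.04 ± 0.25 with LPS (edgeR adjusted p-value 0.9), beside the 6.17 of *Cxcl5* and the 4.65 of *Cxcl3*. *Sdad1*, which lies 10868 bp from *Cxcl9* on the same strand, was lower with LPS (−0.85 ± 0.10, adjusted p-value 2.4e-05) and with IFN-β (−0.53, adjusted p-value 0.0014).

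The remaining CXC ligand genes changed little or were hardly detected. Of 7 ligands, *Pf4*, *Ppbp* and *Cxcl14* were tested. *Cxcl14* was at 2.26, 3.19 and 2.73 CPM unstimulated and at 1.10, 1.66 and 1.81 CPM with LPS, a log2 fold change of −0.83 ± 0.27 (edgeR adjusted p-value 0.018), which missed the threshold without unstimulated library B (adjusted p-value 0.0659) and without LPS library A (0.067). *Pf4* had a log2 fold change of 0.36 ± 0.13 with LPS (adjusted p-value 0.024), but −0.22 when counts were scaled by library size alone, and it missed the threshold without unstimulated library A (0.0764), unstimulated library B (0.105) or LPS library C (0.0899) and with upper-quartile factors (0.087). With IFN-β 0 of the 3 passed, although *Pf4* (−0.21, adjusted p-value 0.00561) and *Ppbp* (−0.23, adjusted p-value 0.0151) did with the letters as a block, and *Pf4* also with scaling by library size (−0.51, adjusted p-value 0.0062) and without IFN-β library C (−0.34, adjusted p-value 0.0385). Of all tested genes, 32.8% were higher and 35.4% lower with LPS, and 23.6% and 23.3% with IFN-β. Between IFN-β and LPS *Pf4* was lower (−0.57 ± 0.13, edgeR adjusted p-value 0.0035), but missed the threshold with scaling by library size (0.0789). *Ppbp* and *Cxcl14* missed it there, but passed with the letters as a block (adjusted p-values 0.00583 and 0.00809). In this comparison 23.3% of all tested genes were lower and 25.8% higher. *Cxcl12* had 0 to 9 counts per library, *Cxcl13* and *Cxcl15* had 0 or 1, and *Cxcl17* had 0 in every library.

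Of 8 receptor genes, 3 were tested. *Cxcr2*, the receptor of the neutrophil-attracting members, had 27, 29 and 28 counts in libraries A, B and C without stimulus, 2 in each LPS library and 11 in each IFN-β library. Its log2 fold change was −3.31 ± 0.32 with LPS (edgeR adjusted p-value 4.2e-06) and −1.20 ± 0.23 with IFN-β (adjusted p-value 0.0016). *Cxcr4*, the receptor of CXCL12, fell from 37.4, 29.4 and 24.6 CPM to 4.39, 5.39 and 3.32 CPM with LPS (log2 fold change −2.80 ± 0.23, adjusted p-value 1.2e-06). With IFN-β its log2 fold change was −0.32 ± 0.20 (adjusted p-value 0.21), which passed with the letters as a block (−0.33, adjusted p-value 0.00597) and with scaling by library size (−0.62, adjusted p-value 0.0148). *Cxcr5*, a receptor that guides cells to B cell follicles, had 8, 5 and 8 counts unstimulated, 39, 50 and 35 with LPS and 22, 17 and 16 with IFN-β. It rose 7.81-fold with LPS (edgeR adjusted p-value 3.1e-06) and 2.83-fold with IFN-β (adjusted p-value 0.0021). *Cxcr5* passed the filter on low counts through the stimulated libraries alone, and *Cxcr2* needed its unstimulated libraries to pass. Among all tested genes 32.8% were higher and 35.4% lower with LPS, and 23.6% and 23.3% with IFN-β. *Cxcr3*, the receptor of CXCL9, CXCL10 and CXCL11, had 0 to 16 counts per library, and *Cxcr6*, the receptor of CXCL16, had 0, 0 and 1 counts unstimulated, 7, 4 and 5 with LPS and 5, 7 and 11 with IFN-β. *Cxcr1* and *Ackr1* had at most 4 counts in a library, and *Ackr3* had 16, 6 and 5 unstimulated and 0 in each LPS library.

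Of 12 genes of the LPS receptor and NF-κB arm, 11 were higher and 1 lower with LPS, and the same numbers were counted with IFN-β. Among all tested genes 32.8% were higher and 35.4% lower with LPS, and 23.6% and 23.3% with IFN-β. The median log2 fold change of the list was 1.70 with LPS and 0.48 with IFN-β. *Nfkbiz*, a regulator of secondary NF-κB targets, rose by 4.18 ± 0.15 with LPS (edgeR adjusted p-value 5.3e-09) and by 0.76 ± 0.14 with IFN-β, and *Nfkbia*, the inhibitor IκBα, by 2.33 ± 0.11 and 0.49 ± 0.11. *Tlr4* was lower with LPS (−0.63 ± 0.12), and the co-receptor gene *Cd14* was lower with IFN-β (−0.27 ± 0.09) and differed most between the stimuli (−3.48 ± 0.09). The *Cd14* call with IFN-β (adjusted p-value 0.025) was lost when unstimulated library A or C or IFN-β library A or B was left out, with adjusted p-values from 0.0583 to 0.0918. With scaling by library size alone 4 genes of the list were higher with IFN-β in place of 11, and *Nfkbia* was at 0.18 (adjusted p-value 0.164). Between IFN-β and LPS 1 gene, *Tlr4*, was higher and 11 were lower, against 25.8% of all tested genes higher and 23.3% lower. *Myd88*, the adaptor of TLR4, had the largest rise of the list with IFN-β, at 0.83 ± 0.10.

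Of 11 genes of the type I interferon arm, 10 were higher with LPS and 0 lower, and with IFN-β 10 were higher and 1, *Irf3* (−0.30 ± 0.08), lower. The shares of all tested genes were 32.8% higher and 35.4% lower with LPS, and 23.6% and 23.3% with IFN-β. *Ifnb1*, counted as higher with both stimuli, passed the filter on low counts through the LPS libraries alone. *Irf1*, an interferon regulatory factor, rose by 2.40 ± 0.19 with LPS (edgeR adjusted p-value 8.7e-07) and by 2.01 ± 0.18 with IFN-β, and *Irf7*, which amplifies the interferon response, by 3.34 ± 0.53 and 3.12 ± 0.52 on the log2 scale. Between IFN-β and LPS 5 of the 11 were lower and 0 higher (8 lower with the letters as a block and 2 with scaling by library size alone). In that comparison 23.3% of all tested genes were lower and 25.8% higher. The log2 differences of *Irf1* (−0.39) and *Irf7* (−0.22) missed the threshold, with adjusted p-values of 0.091 and 0.74, and *Irf1* passed with the letters as a block (−0.37, adjusted p-value 0.00196). *Ifnb1*, the gene of IFN-β itself, had 0, 0 and 1 counts unstimulated, 137, 117 and 93 with LPS and 9, 5 and 9 with IFN-β. As a ratio of summed scaled counts to the single unstimulated count, it was 468 with LPS (exact conditional 95% interval 83.4 to 18538) and 25.3 with IFN-β (interval 4.11 to 1043). Of the interferon-γ receptor genes, *Ifngr1* was lower with LPS (−1.48 ± 0.11) and with IFN-β (−0.66 ± 0.10), and *Ifngr2* was higher with both (0.78 ± 0.08 and 0.39 ± 0.08), but at 0.09 with IFN-β (adjusted p-value 0.25) with scaling by library size alone.

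The short-lived transcripts of many cytokines carry ATTTA letters in the 3′ untranslated region (UTR), which proteins that speed mRNA decay recognise. In the longest coding transcripts of GENCODE M21, *Cxcl2* held 11 such pentamers in 1494 bases and *Cxcl1* 7 in 592, *Cxcl3* and *Cxcl5* held 5 each, *Cxcl9* and *Cxcl10* 3 each, *Cxcl16* 2 and *Cxcl11* 1. The median over 20962 genes was 1, and 5.43% of them held at least as many as *Cxcl2*, 13.1% as many as *Cxcl1* and 21.4% as many as *Cxcl3* or *Cxcl5*. The densest 30 bases of the 2 richest members, from base 81 of the *Cxcl1* and base 883 of the *Cxcl2* UTR, are shown as DNA with the pentamers in capitals. They were searched for after the expression values were known and describe the letters only.
Cxcl1: gggtcctATTTATTTAtgtATTTATTTAtt
Cxcl2: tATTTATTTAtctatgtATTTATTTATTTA
Of 7 genes for mRNA decay and stability, 4 were higher and 3 lower with LPS, and 2 were higher and 2 lower with IFN-β. Across all tested genes 32.8% were higher and 35.4% lower with LPS, and 23.6% and 23.3% with IFN-β. *Zfp36* (tristetraprolin, which binds such letters and promotes decay) rose by 2.08 ± 0.21 with LPS (edgeR adjusted p-value 7.3e-06), and by 0.60 ± 0.21 with IFN-β (adjusted p-value 0.035). The IFN-β value missed the threshold when unstimulated library B or C, LPS library B or IFN-β library A or B was left out, with adjusted p-values from 0.0526 to 0.129, and with scaling by library size (0.29, adjusted p-value 0.172). *Zc3h12a* (regnase-1, an endonuclease for inflammatory mRNAs) rose by 2.55 ± 0.11 with LPS and differed by 0.11 ± 0.11 with IFN-β (adjusted p-value 0.43). *Arid5a*, which stabilises such mRNAs, rose by 2.63 ± 0.13 with LPS and by 2.06 ± 0.13 with IFN-β. *Zfp36l2* was lower with LPS (−1.43 ± 0.18) and *Zfp36l1* lower with IFN-β (−0.31 ± 0.10, adjusted p-value 0.023). The *Zfp36l1* call was lost when unstimulated library A or C or IFN-β library B or C was left out, with adjusted p-values from 0.0618 to 0.0903.

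Of 4 protease genes that act on CXC chemokines, 2 were higher and 1 lower with LPS, and 2 were higher with IFN-β. These counts stand beside 32.8% of all tested genes higher and 35.4% lower with LPS, and 23.6% higher with IFN-β. *Adam10*, which releases CXCL16 from the membrane, was lower with LPS (−0.55 ± 0.09, edgeR adjusted p-value 0.00019) and had a log2 fold change of 0.14 ± 0.09 with IFN-β (adjusted p-value 0.22). *Adam17*, another sheddase, rose by 1.07 ± 0.11 with LPS and by 0.63 ± 0.10 with IFN-β, and *Dpp4*, which trims the CXCR3 ligands at their N terminus, by 0.64 ± 0.11 and 0.90 ± 0.11. With scaling by library size alone *Dpp4* was at 0.06 with LPS (adjusted p-value 0.605).

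Markers of other cell types were measured beside these results, and their part in them was not tested. For the counts below, 32.8% of all tested genes were higher and 35.4% lower with LPS, and 23.6% were higher with IFN-β. Of 5 macrophage markers, 3 were higher and 1 lower with LPS, and 2 were higher with IFN-β, with a summed level of 1662 to 2104 CPM unstimulated, 1864 to 2416 CPM with LPS and 2365 to 2692 CPM with IFN-β. The 8 neutrophil markers summed to 10.1 to 23.1, 13.3 to 25.6 and 9.61 to 19.7 CPM in the 3 groups, with 1 of 5 tested (*Camp*) higher with LPS and *Elane* at or under 3 counts in every library. *Camp* passed the filter on low counts through the LPS libraries alone. The T and NK cell markers summed to at most 0.539 CPM, with *Cd3e*, *Cd3g* and *Ncr1* at or under 3 counts. The 6 fibroblast and endothelium markers summed to 5.93 to 7.58 CPM unstimulated, 9.41 to 16.2 CPM with LPS and 9.27 to 10.1 CPM with IFN-β, and 3 of them were higher with LPS and 1 with IFN-β. *Pdgfra*, counted as higher with LPS, also passed the filter through the LPS libraries alone.

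For each member, the 3 genes with the most similar pattern were taken from 12802 genes with a mean of at least 1 CPM, by Pearson's r of log2(CPM + 0.5) over the 9 libraries. These values describe 3 groups of 3 libraries, in which a gene that separates the groups reaches a high r. *Cxcl1* was closest to *Il17rd* (r = 0.9990), *Sh3pxd2a* and *Il12b*, and *Cxcl2* to *Il1b* (0.9981), *Icosl* and *Gm43386*. *Cxcl3* was closest to *Serpinb2* (0.9983), *Il1b* and *Ift57*, and *Cxcl5* to *Ptgs2os* (0.9975), *Gm43386* and *Stat5a*. The nearest genes were *A630012P03Rik* (0.9979), *Gmppb* and *Abr* for *Cxcl9*, *Lrch3* (0.9982), *Ap3b1* and *Fbn1* for *Cxcl10*, and *Ap3b1* (0.9997), *Marchf5* and *Nsd3* for *Cxcl11*. *Cxcl16* was closest to *Sbds* (0.9988), *Nfkbiz* and *Kremen1*.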

How the data were processed

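Total RNA from 9 libraries was depleted of ribosomal RNA and sequenced by the authors as paired reads of 100 bases. The authors trimmed the reads (Trim Galore 0.6.0 in the submitters' processing notes) and mapped them to mm10 with STAR. The notes name STAR 2.7.8a, and the methods of the study another release. The deposited values are raw counts per gene on GENCODE M20, without normalization or a filter, and the strand setting is not given in the sources used here. Coordinates, lengths and windows came from GENCODE M21, which held 55144 of the 55471 identifiers, and promoters from RefSeq.

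Counts were tested with edgeR 4.0.16 (limma 3.58.1, R 4.3.3) after the study's methods, with TMM factors (0.783 to 1.26), filterByExpr, 1 term per condition over all 9 libraries, quasi-likelihood F-tests and Benjamini-Hochberg adjustment over 16260 genes. The threshold was an adjusted p-value under 0.05. Standard errors are the absolute log2 fold change divided by the square root of F. On simulated data for LPS against unstimulated (15974 genes), 68 of 97 genes changed by 1 on the log2 scale were recovered (70.1%) and 95 of 98 changed by 2 (96.9%), and 7.91% of calls were false. In the simulation all other genes kept a common mean, and the changes were drawn evenly from both directions. In the real LPS comparison 11084 of 16260 genes were called, so these rates do not cover a change of that extent. The smallest p-value of an exact permutation test with 3 against 3 libraries is 0.1.

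After subtraction of the group means, all 9 pairs of libraries with the same letter correlated across genes (r 0.134 to 0.546), so the letters were taken as pairing the libraries. The pairing comes from the data and not from the labels. Blocked values are given where a call of a member changed, and for some of the other genes whose call changed. Replicates of a group differed by more than counting noise. Intervals and the floor of 3 counts cover counting error only, since no molecular identifiers are described and PCR copies may have been counted. The members, lists and tests were chosen with earlier results of these data known. Named are all members, every listed CXC ligand and receptor, the largest rise and fall in each pathway list and comparison, a set of pathway genes, the 3 genes nearest in pattern, and some of the neighbours. Alternatives were DESeq2 1.42.0, scaling by library size, upper-quartile factors, no filter, at least 10 counts in every library, the compared groups alone, the letter block, a pseudocount of 1 count for ratios, stricter thresholds and leaving out each library. Ratios of few counts, the second length and the ATTTA search were added after the data were seen.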

Additional observations from a re-analysis of the deposited data

How the results depend on the processing

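Under every alternative run, each member with a value stayed higher with LPS, and the 4 within-library ratios kept their direction. The letter block brought the members higher with IFN-β from 4 to 6 (*Cxcl2* and *Cxcl3* were added) and those lower with IFN-β than with LPS from 7 to 8 (*Cxcl9*), and it changed no other call of a member. Of the genes of the other pathway lists, it also changed calls of *Pf4*, *Ppbp*, *Cxcr4*, *Cxcl14*, *Mmp9*, *Jak1*, *Stat2*, *Irf1* and *Dpp4*. The share of all tested genes called with the block is not given here. The counts with the block are therefore not read as a result about the members. Scaling by library size alone shifted the median log2 fold change of all tested genes by −0.58 with LPS, −0.31 with IFN-β and 0.27 between the stimuli. Under it *Pf4* turned to −0.22 and *Elavl1* to −0.14 with LPS, and *Elavl1* to −0.24 with IFN-β. The share of higher genes among those changed was then 21.9% with LPS, 22.3% with IFN-β and 77.9% between the stimuli, against 48.1%, 50.3% and 52.5% with TMM factors. *Cxcl2* with IFN-β also passed with DESeq2 (adjusted p-value 0.017) and without a filter (0.000988), and *Cxcl9* between the stimuli passed without a filter (−0.79). The cause of these last changes was not tested. With *Cxcl11* at 5, 1 and 0 unstimulated counts, depth limits the size of its fold change. *Cxcl11* and *Cxcl5* have no value with at least 10 counts in every library.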
